A study of Homo sapiens with 7 samples.

Results

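The 41 genes described here build and drive the contractile apparatus of skeletal muscle, and were taken by name from a written list of structural, contractile and excitation-coupling genes. All 41 are among the 57189 genes counted by RNAseq in RH30, an established cell line of alveolar rhabdomyosarcoma (RMS), a tumor with features of immature skeletal muscle. The 41 genes comprise 9 of the thick filament, 13 of the thin filament, 4 of titin and the M-band, 8 of the Z-disc and cytoskeleton, 5 of the membrane and excitation coupling, the creatine kinase gene CKM and the fusion gene MYMK. RNA was available from 7 samples of RH30, 4 of untreated cells and 3 of cells kept for 24 h with 5 µM BV6, a Smac mimetic that binds inhibitor of apoptosis proteins (IAPs). The labels give the genotype of both groups as wt, while the methods of the study state that cells carrying GFP and luciferase were used throughout. A single cell line was sampled, and cells are compared with and without BV6 at 1 dose and 1 time. BV6 replicates 2, 3 and 4 share a code in the sample titles (BC13, BC14 and BC25/27) with untreated replicates 2, 3 and 4. The code of untreated replicate 1, BC11, is represented by that sample alone. What the codes mean is not stated, and they are read here as experiments. The comparison asks how much mRNA of the muscle contraction machinery RH30 cells held with and without BV6.

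In striated muscle, myosin heads of the thick filament pull on actin of the thin filament, and the shortening unit between Z-discs is the sarcomere. Calcium released through the ryanodine receptor binds troponin C, and troponin I, troponin T and tropomyosin then uncover the myosin sites on actin. Many of these proteins come as slow, fast, cardiac and developmental forms from separate genes, and RMS cells express part of this program under MYOD1 and MYOG without becoming mature fibers.

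The deposited counts summed to between 54070030 and 77220882 per sample, and the 41 genes together took 0.343% to 0.534% of them. The study states a range of reads per library, over more libraries than these 7, that lies wholly below these sums. The reason is not given in the sources used here, so a count may not equal a read pair. Levels are CPM, counts scaled by the TMM-normalized library size, and 3 counts correspond to 0.039 to 0.0557 CPM, a floor that covers counting error only. The muscle identity of the line was checked with its regulators. MYOD1 lay between 157 and 474 CPM, MYOG between 78.8 and 226 CPM and PAX3, whose fusion defines many alveolar tumors, between 19.3 and 27.4 CPM in the 7 samples. In bulk RNA, fewer cells of a type and less RNA per cell cannot be told apart. Defining markers of leukocytes and fibroblasts lay at unequal levels. PTPRC, the pan-leukocyte gene, stayed between 0.204 and 0.801 CPM, and CD3E, CD79A and CD14 stayed at or under 0.753 CPM, whereas NKG7 had 5.29 to 11.1 CPM. Of the fibroblast genes, DCN stayed at or under 0.156 CPM, LUM lay between 1.1 and 4.99 CPM and COL1A1 between 5.05 and 14.5 CPM, and COL3A1 and THY1 reached 258 and 99.7 CPM.

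In untreated RH30, the embryonic, cardiac and slow forms of actin, troponin T and troponin I stood above the adult skeletal or fast ones. Levels were compared between genes per kilobase of exon, as CPM per kb with SD over 4 untreated samples. Cardiac actin ACTC1 stood at 337 ± 92 CPM per kb, whereas skeletal actin ACTA1, the main actin of adult muscle, stood at 0.178 ± 0.059. Slow troponin T TNNT1 had 151 ± 14.3, cardiac troponin T TNNT2 39.8 ± 4.57 and fast troponin T TNNT3 0.131 ± 0.0825 CPM per kb. Slow troponin I TNNI1 reached 96.4 ± 12.6 and fast troponin I TNNI2 1.68 ± 0.698 CPM per kb, and the troponin C pair was low in both forms, at 2.99 ± 0.927 for TNNC1 and 0.447 ± 0.25 for TNNC2. In each of the actin, troponin T and troponin I groups, the levels of neighboring forms per kb were separated by more than their SDs. The length is that of all annotated exons joined, 2.12 kb for TNNT1 and 7.33 kb for TNNT2. In CPM, TNNT1 (320 ± 30.3) and TNNT2 (292 ± 33.5) overlapped, so their gap per kb rests on this length. Among tropomyosins the order was TPM2 (77.5 ± 8.49), TPM3 (13.3 ± 1.65) and TPM1 (8.48 ± 1.71 CPM per kb). The samples of TPM2 (247 ± 27 CPM) and TPM3 (201 ± 25 CPM) overlapped before division by length. Their gap per kb therefore rests largely on joined exon lengths of 3.18 and 15.1 kb. Among the 4 genes of myosin heavy chains, the motor subunits, in the list, embryonic MYH3 led with 0.81 ± 0.106 CPM per kb, followed by slow MYH7 at 0.216 ± 0.136, perinatal MYH8 at 0.186 ± 0.142 and fast MYH2 at 0.0493 ± 0.0154, where the samples of MYH8 overlapped those of MYH7 and of MYH2, while MYH7 lay above MYH2 in every untreated sample. The light chains of myosin did not follow the order of the actins and troponins. Among them, fast MYL1 stood highest at 10.9 ± 4.52 CPM per kb. Embryonic and atrial MYL4 had 5.11 ± 2.1 and regulatory MYLPF 1.9 ± 0.9 CPM per kb, and the samples of MYL1 and MYL4 overlapped. The intermediate filament gene DES, a marker of RMS, had 309 ± 46 CPM per kb. The 5 genes with the highest CPM held 67.2% of the summed CPM of all 41, and 7 of the 41 stayed under 1 CPM in every sample.

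**Figure D1:**
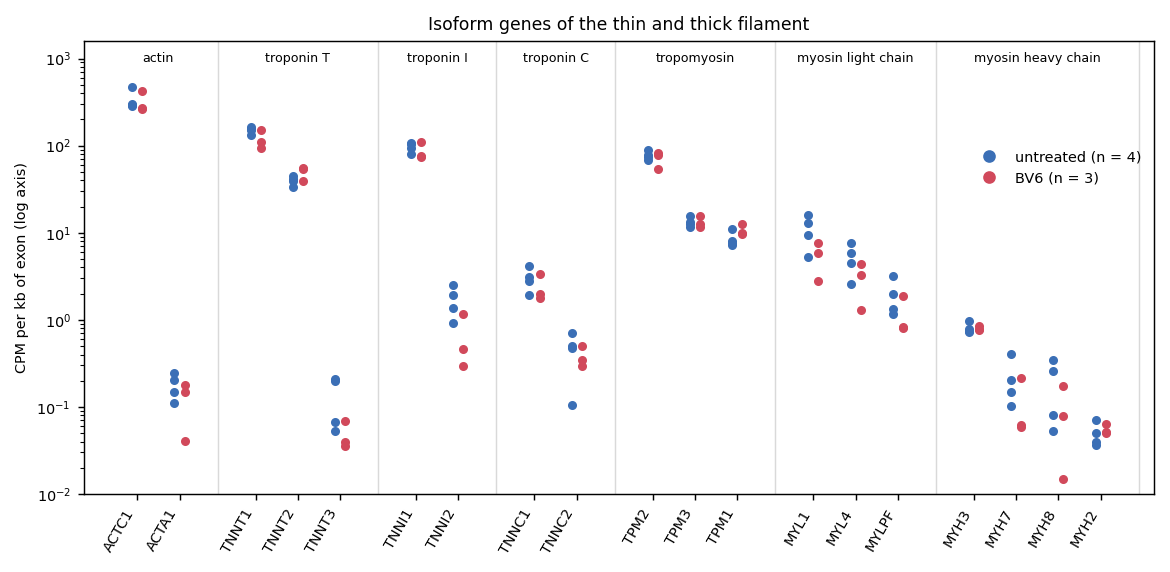
Levels of the contractile isoforms in CPM per kilobase of exon on a log axis, one point per sample for untreated and BV6-treated RH30 cells. In untreated samples ACTC1 averaged 337 and ACTA1 0.178 CPM per kb, and TNNI1 averaged 96.4 and TNNI2 1.68.

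Promoters of RefSeq (GRCh38.p14, 250 bases before to 50 bases after each start) were found for 27 of the 41 genes, in 35 windows. Windows are shown for 3 genes that differ in how they stood with BV6 in the results below: MYL1, called lower with the experiment as a block, MYH8, the heavy chain with the largest difference, and TNNT2, higher in every experiment. The 3 genes were chosen after the values were seen, and MYH8 and TNNT2 did not pass the test on condition alone or with the block. MYL4 and TNNI2, the other genes called with the block, had no window. Capitals mark E-boxes, CANNTG on either strand, the motif bound by MYOD1 and MYOG, or a MEF2 box, the AT-rich motif of MEF2 factors. All 4 windows lie on the minus strand and are written 5′ to 3′ along the gene.
MYL1 start 1, chr2:210315125-210315424: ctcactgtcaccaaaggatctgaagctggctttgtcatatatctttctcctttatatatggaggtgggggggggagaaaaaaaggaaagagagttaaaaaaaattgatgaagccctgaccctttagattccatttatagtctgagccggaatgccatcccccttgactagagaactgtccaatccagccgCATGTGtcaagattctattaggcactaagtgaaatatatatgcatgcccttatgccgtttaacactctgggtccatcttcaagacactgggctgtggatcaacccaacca
MYL1 start 2, chr2:210303566-210303865: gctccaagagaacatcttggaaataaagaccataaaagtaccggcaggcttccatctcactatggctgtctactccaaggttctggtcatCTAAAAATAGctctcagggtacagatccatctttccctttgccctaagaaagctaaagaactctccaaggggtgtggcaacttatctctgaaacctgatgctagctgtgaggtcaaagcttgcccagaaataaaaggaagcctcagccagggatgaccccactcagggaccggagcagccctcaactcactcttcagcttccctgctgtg
MYH8, chr17:10421901-10422200: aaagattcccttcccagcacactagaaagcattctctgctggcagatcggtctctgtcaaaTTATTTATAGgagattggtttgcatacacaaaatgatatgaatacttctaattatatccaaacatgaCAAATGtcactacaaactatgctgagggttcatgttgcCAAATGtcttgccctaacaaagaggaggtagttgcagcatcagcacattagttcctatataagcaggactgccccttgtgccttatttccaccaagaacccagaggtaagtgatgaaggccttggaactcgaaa
TNNT2, chr1:201377631-201377930: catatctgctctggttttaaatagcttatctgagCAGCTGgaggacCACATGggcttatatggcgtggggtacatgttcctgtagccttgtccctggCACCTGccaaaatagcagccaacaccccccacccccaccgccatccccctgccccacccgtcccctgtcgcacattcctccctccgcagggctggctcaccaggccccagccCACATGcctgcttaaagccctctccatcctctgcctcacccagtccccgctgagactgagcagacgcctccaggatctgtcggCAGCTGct
The first MYL1 window held 1 E-box and the second 1 MEF2 box, the MYH8 window 2 E-boxes and 1 MEF2 box, and the TNNT2 window 5 E-boxes and no MEF2 box. Of the 35 windows, 27 (77.1%) held an E-box, against 68.7% of all 35116 windows. The E-box form CAGCTG stood in 16 (45.7%, against 17.9%), a MEF2 box in 8 (22.9%, against 2.99%) and a CArG box, the motif of SRF, in 5 (14.3%, against 1.29%). These are matches of letters in short windows, and several genes enter with more than 1 window.

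With BV6, 31 of the 40 genes that could be tested stood lower on average. Without regard to experiment, none of them passed the test. MYBPC1, a myosin binding protein gene, had 3 to 12 counts per sample and was not tested. The other 40 passed the filter on low counts, 5 of them (MYH8, ACTA1, TNNT3, CACNA1S and CKM) with fewer than 3 BV6 samples over its limit of 0.168 CPM. In edgeR's quasi-likelihood test on condition alone with Benjamini-Hochberg adjustment, 0 of the 40 had an adjusted p below 0.05, against 0.45% of all 23124 genes tested (0.0562% lower and 0.394% higher). Adjusted p-values below come from this test, on condition alone or with a block. At an unadjusted p below 0.05, 4 were lower (4.26% of all genes) and 0 higher (4.13%). The DESeq2 Wald test also called 0 of the 41 (0.94% of all genes) and had 6 lower at an unadjusted p below 0.05 (3.11%). The median log2 fold change of the 40 was -0.32, against -0.01 over all genes, and 31 of the 40 (77.5%) were lower, as were 52.3% of all genes. Split by level, the 24 genes under 10 CPM had a median of -0.52 (-0.05 over all such genes). The 16 at or over 10 CPM had -0.17 (0.01 over all such genes). Summed over the 41 genes, levels were 4618, 3913, 4882 and 5360 CPM in untreated replicates 1 to 4. They were 3505, 3897 and 5263 CPM in BV6 replicates 2 to 4. In the 35 genes with at least 3 BV6 samples over the filter limit the median was -0.25, and 27 were lower. TNNT3, TNNI2 and MYH8 had a log2 fold change of -1 or lower (1.62% of all genes). Of these, only TNNI2 had 3 BV6 samples over the filter limit, so the count is not a result set against that share. In none of the 40 did the groups separate, and BV6 samples lay wholly below the untreated ones in 3.89% of all genes and wholly above in 4.94%. These shares are small, so 0 of 40 is not a result set against them.

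Samples of the same experiment deviated together from their group means, with correlations across the 40 genes of 0.853, 0.754 and 0.734 in experiments 2, 3 and 4, so the same test was run with the experiment as a block. MYL1, MYL4 and TNNI2 then fell at an edgeR adjusted p below 0.05, 3 of 40 where 0.294% of all genes were called lower, and 0 of 40 were called higher (0.649% of all genes). At an unadjusted p below 0.05, 18 were lower (6.43% of all genes) and 3, TPM1, TNNT2 and ACTN2, were higher (4.94%). The median log2 fold change was -0.36, against -0.02 over all genes, and -0.28 in the 35 genes. It was -0.57 in the 24 genes under 10 CPM and -0.21 in the 16 at or over it. With a correction for GC content added to the block, 11 of 40 were called, 9 lower and 2 higher, where 6.11% of all genes were called, 2.98% lower and 3.13% higher. Without experiment 4 the blocked fit called 12 of 40, all lower (4.72% of all genes). It called 3 in either direction without experiment 2 (1.15% of all genes) and 4 without experiment 3 (2.26%). By ratio within each experiment, 19 of the 40 were lower in 3 of 3 (17.8% of all genes) and 4, ACTN2, TCAP, TPM1 and TNNT2, were higher in 3 of 3 (15.5%). The median log2 ratio of the 40 was -0.22 in experiment 2, -0.53 in experiment 3 and -0.16 in experiment 4 (SD 0.197 over the 3 experiments). BV6 samples were lower for 29, 33 and 25 of the 40 genes in these experiments. Over all genes tested, the medians were -0.001, -0.051 and 0.002, and 50.4%, 55.3% and 49.8% of the genes were lower.

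**Figure D2:**
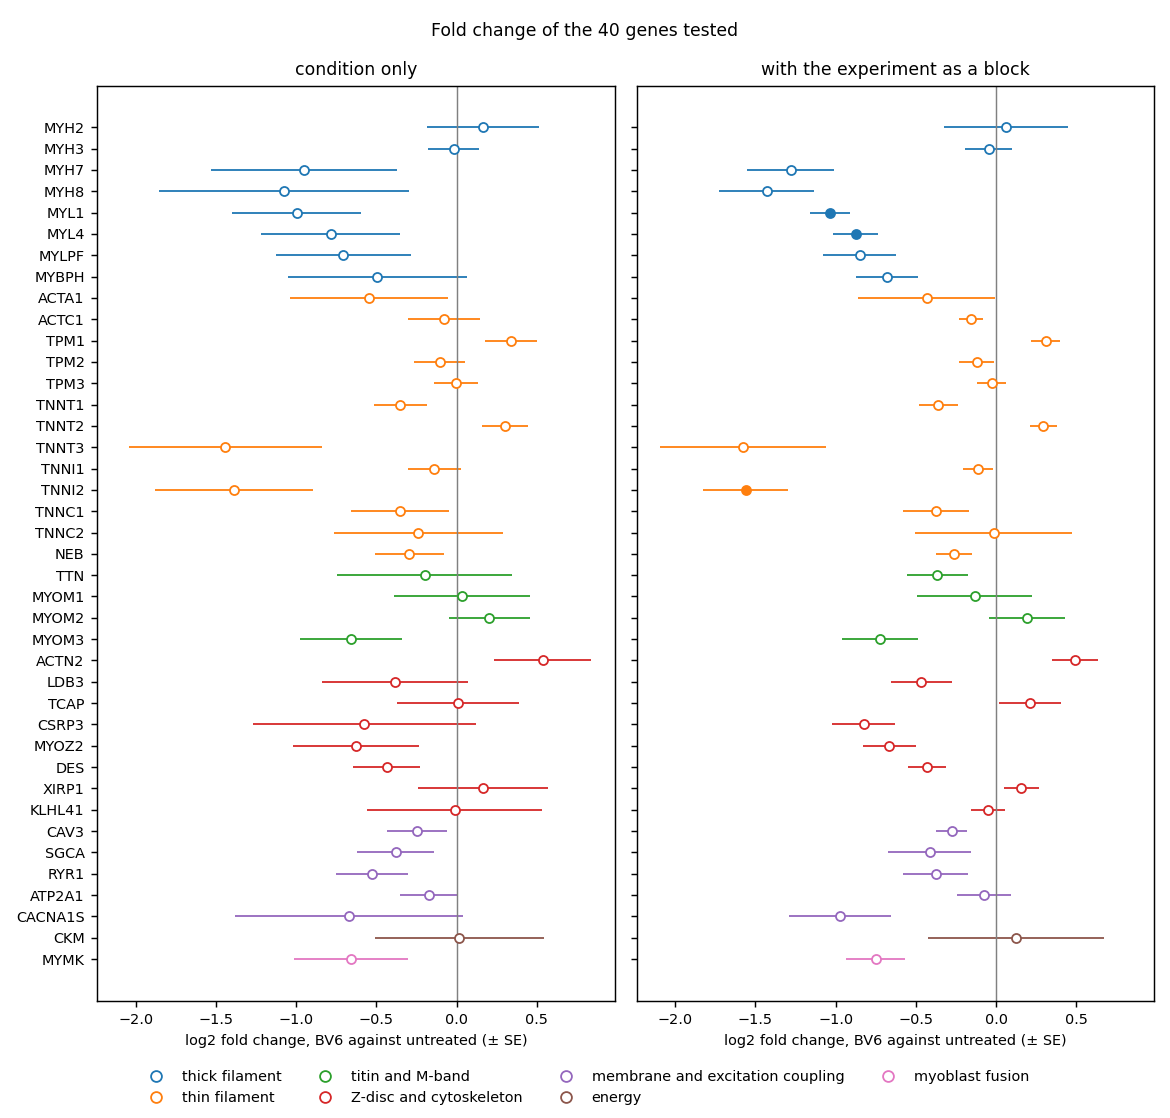
Log2 fold change of BV6-treated against untreated RH30 for the 40 tested genes by role, from edgeR on condition alone and with the experiment as a block, with standard errors and filled points for an adjusted p below 0.05. Thick filament genes had a median of -0.75 on condition alone and -0.86 with the block, and the 3 genes called with the block were MYL1, MYL4 and TNNI2.

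Of 8 thick filament genes tested, 7 were lower with BV6, with a median log2 fold change of -0.75 on condition alone and -0.86 with the block. MYL1 (chromosome 2, 210290150 to 210315174), an essential light chain of fast myosin, had 12.5, 7.05, 17 and 21 CPM in untreated replicates 1 to 4 and 3.74, 7.76 and 10.1 CPM in BV6 replicates 2 to 4. The groups overlapped through untreated replicate 2, while each BV6 sample lay at about the same distance below the untreated sample of its own experiment. On condition alone its log2 fold change was -0.997 (SE 0.401, edgeR adjusted p = 0.557). With the block it was -1.04 (SE 0.126, edgeR adjusted p = 0.0141).

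MYL4 (chromosome 17, 47200446 to 47223679), the light chain of atrial and embryonic muscle, had 7.36, 4.24, 9.49 and 12.4 CPM in the untreated and 2.1, 5.28 and 7.19 CPM in the BV6 samples. As for MYL1, experiment 2 was the lowest in both groups and the groups overlapped. Its log2 fold change was -0.78 on condition alone (SE 0.432, edgeR adjusted p = 0.684) and -0.87 with the block (SE 0.14, edgeR adjusted p = 0.0379). Without experiment 2 the blocked call of MYL4 was lost, with a log2 fold change of -0.80 and an edgeR adjusted p of 0.119, while MYL1 and TNNI2 were called with each experiment left out.

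The regulatory light chain gene MYLPF, also named MYL11, had 1.44, 1.28, 2.16 and 3.44 CPM in untreated and 0.908, 0.88 and 2.04 CPM in BV6-treated cells, a log2 fold change of -0.85 with the block (edgeR adjusted p = 0.19). Slow heavy chain MYH7 had 0.623, 0.891, 1.23 and 2.47 CPM without and 0.374, 0.359 and 1.3 CPM with BV6, at -1.28 with the block (edgeR adjusted p = 0.0933). MYH8, singled out after its values were seen, went from 0.493, 0.321, 1.58 and 2.1 to 0.089, 0.473 and 1.04 CPM, at -1.43 (edgeR adjusted p = 0.0895). MYLPF, MYH7 and MYH8 were lower in each of 3 experiments, and none passed the test. Of the remaining thick filament genes, MYBPH had a blocked log2 fold change of -0.68 (edgeR adjusted p = 0.209) and MYH2 one of 0.06. Embryonic MYH3 stood at 5.42 ± 0.708 CPM (SD, n = 4) without and 5.35 ± 0.286 CPM (SD, n = 3) with BV6. The heavy chain genes are close paralogs, so the split of reads between them is uncertain.

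The fast troponin genes TNNI2 and TNNT3 had log2 fold changes below -1, and the 11 other thin filament genes lay between -0.55 and 0.34 on condition alone. TNNI2 (chromosome 11, 1838981 to 1841680), the fast inhibitory subunit, had 1.48, 0.998, 2.09 and 2.75 CPM in untreated and 0.321, 0.505 and 1.28 CPM in BV6-treated cells. Only BV6 replicate 4 reached into the untreated range. Its log2 fold change was -1.39 on condition alone (SE 0.492, edgeR adjusted p = 0.463) and -1.56 with the block (SE 0.266, edgeR adjusted p = 0.0488), a blocked ratio of 0.339. TNNI1, the slow form, had 779, 598, 700 and 809 CPM without and 576, 557 and 834 CPM with BV6, a log2 fold change of -0.14 (edgeR adjusted p = 0.844).

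TNNT3, the fast tropomyosin-binding subunit, lay near the floor at 0.182, 0.142, 0.564 and 0.534 CPM without and 0.107, 0.0978 and 0.186 CPM with BV6. Its blocked log2 fold change of -1.58 had a standard error of 0.516 and an edgeR adjusted p of 0.29. Slow TNNT1 had 329, 277, 323 and 349 CPM in untreated and 234, 196 and 322 CPM in BV6-treated cells, at -0.36 with the block (edgeR adjusted p = 0.303). Cardiac TNNT2 stood on the other side, with 292, 247, 326 and 303 CPM without and 287, 391 and 401 CPM with BV6, at 0.29 (edgeR adjusted p = 0.205). A noncoding gene on the same strand shares 15.4% of the exon bases of TNNT2. TNNT2 was higher and TNNT1 lower in each of 3 experiments. The log2 ratio of TNNT2 to TNNT1 was -0.134 ± 0.099 (SD, n = 4) without and 0.535 ± 0.397 (SD, n = 3) with BV6, and the groups did not overlap. That of TNNI2 to TNNI1 was -8.714 ± 0.496 without and -10.088 ± 0.733 with BV6, also without overlap. Both ratios were chosen after the values were seen, out of 4 examined. In an exact permutation test each had p = 0.0571 (0.114 after Benjamini-Hochberg adjustment over the 4). This is the smallest p that 4 against 3 samples can give. In the other ratios the groups overlapped. TNNT3 to TNNT1 stood at -10.066 ± 0.937 without and -10.942 ± 0.170 with BV6 (exact permutation p = 0.229). TNNC2 to TNNC1 stood at -3.412 ± 0.820 and -3.030 ± 0.224 (exact permutation p = 0.743).

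TPM1, a tropomyosin that winds along actin, had 113, 161, 106 and 119 CPM in untreated and 186, 145 and 143 CPM in BV6-treated cells, a log2 fold change of 0.31 with the block (edgeR adjusted p = 0.22). An antisense gene, TPM1-AS, covers 18% of its exon bases, and whether the counting used strand is not given in the sources used here. TPM2 and TPM3 had log2 fold changes of -0.12 and -0.03 with the block. ACTC1, the most abundant of the 41 genes in CPM, had 804, 842, 851 and 1357 CPM without and 747, 781 and 1206 CPM with BV6. Its experiment 4 samples stood high in both groups, and the blocked log2 fold change was -0.15 (edgeR adjusted p = 0.497). ACTA1, TNNC1, TNNC2 and NEB, whose protein nebulin lines the thin filament, had blocked log2 fold changes between -0.43 and -0.01, and none passed the test.

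**Figure D3:**
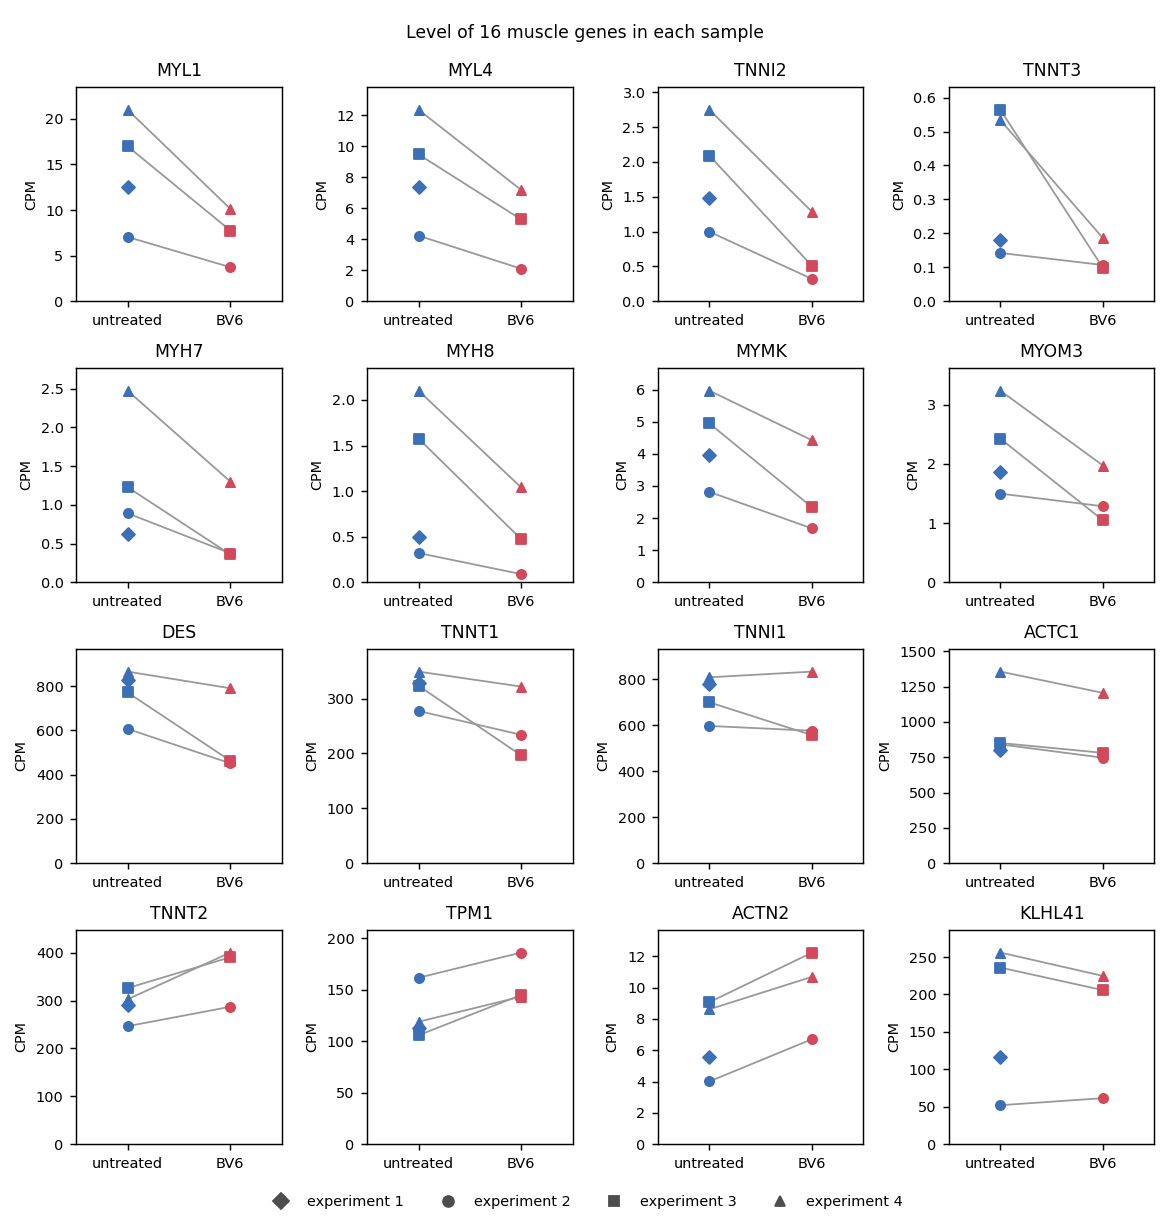
CPM of selected contractile genes in each sample, with lines joining untreated and BV6-treated samples of the same experiment. MYL1, MYL4 and TNNI2 lay lower with BV6 in each of 3 experiments, while their groups overlapped, with experiment 2 the lowest in both.

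None of the 4 titin and M-band genes, which center the filaments, passed the test, and 2 were lower and 2 higher on condition alone. TTN had 130, 62.9, 255 and 154 CPM in untreated and 36.1, 172 and 185 CPM in BV6-treated cells. Experiment 2 was the lowest in both groups. Its blocked log2 fold change was -0.36 (edgeR adjusted p = 0.526), and TTN-AS1 lies across 11.8% of its exon bases on the opposite strand. MYOM3, an M-band protein, had 1.87, 1.5, 2.42 and 3.23 CPM without and 1.28, 1.04 and 1.97 CPM with BV6, at -0.72 with the block (edgeR adjusted p = 0.293). MYOM1 and MYOM2 had -0.13 and 0.19.

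Of 8 Z-disc and cytoskeletal genes, 5 were lower and 3 higher with BV6, with a blocked median log2 fold change of -0.24. DES, the muscle intermediate filament, had 829, 607, 771 and 865 CPM in untreated and 451, 463 and 790 CPM in BV6-treated cells. It was lower in each of 3 experiments, at -0.43 with the block (SE 0.118, edgeR adjusted p = 0.196). MYOZ2, a calcineurin-binding Z-disc protein, had 6.66, 3.53, 8.6 and 8.62 CPM without and 2.21, 6.64 and 4.44 CPM with BV6, at -0.67 (edgeR adjusted p = 0.155). ACTN2, the alpha-actinin that cross-links actin at the Z-disc, stood higher in each experiment, with 5.56, 4.01, 9.08 and 8.62 CPM without and 6.71, 12.2 and 10.7 CPM with BV6, at 0.49 (edgeR adjusted p = 0.233). KLHL41, a stabilizer of nebulin, had 117, 52, 236 and 256 CPM in untreated and 61.4, 206 and 225 CPM in BV6-treated cells, a wider spread within each group than between them, and its blocked log2 fold change was -0.05. A readthrough gene on the same strand shares 35.8% of the exon bases of KLHL41. LDB3, a Z-disc adaptor, and CSRP3, the muscle LIM protein, had blocked log2 fold changes of -0.47 and -0.82, XIRP1, which binds actin, and TCAP, the titin cap, had 0.16 and 0.21, and none passed the test.

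All 5 membrane and excitation-coupling genes were lower with BV6 on average, with a median of -0.38 in both fits, and none passed. RYR1, the calcium release channel, had 190, 117, 175 and 109 CPM in untreated and 87.4, 89.8 and 130 CPM in BV6-treated cells. It was lower in experiments 2 and 3 and higher in experiment 4, at -0.53 on condition alone and -0.38 with the block (edgeR adjusted p = 0.58 and 0.54). CAV3, the muscle caveolin, had 69.7, 57.7, 81.4 and 85.3 CPM without and 48.1, 60.5 and 77.5 CPM with BV6, at -0.28 (edgeR adjusted p = 0.318). The voltage sensor gene CACNA1S, the sarcoglycan gene SGCA and the calcium pump gene ATP2A1 had blocked log2 fold changes of -0.97, -0.41 and -0.08. MYMK, which encodes the membrane activator of myoblast fusion, had 3.96, 2.81, 4.95 and 5.97 CPM in untreated and 1.67, 2.33 and 4.42 CPM in BV6-treated cells. It was lower in each of 3 experiments, at -0.75 with the block (SE 0.185, edgeR adjusted p = 0.15). CKM, the creatine kinase of mature muscle, lay near the floor, with 0.221, 0.107, 0.232 and 0.129 CPM without and 0.0712, 0.179 and 0.279 CPM with BV6.

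Differences between experiments were large in these genes. The median ratio of the highest to the lowest untreated sample was 2.187 over the 40 genes, against 1.443 over all genes tested. Untreated replicate 2 lay under 0.5 times the mean of untreated replicates 3 and 4 in 17 of the 40 (42.5%, against 6.62% of all genes). It was the lowest untreated sample in 27 (67.5%, against 29.6%), and BV6 replicate 2 was the lowest BV6 sample in 25 (62.5%, against 32.8%). MYOG was also lowest in experiment 2, at 78.8 CPM in the untreated and 102 CPM in the BV6 sample, against 155 to 209 and 134 to 226 CPM in the other samples. The part of MYOG in these differences was not tested.

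**Figure D4:**
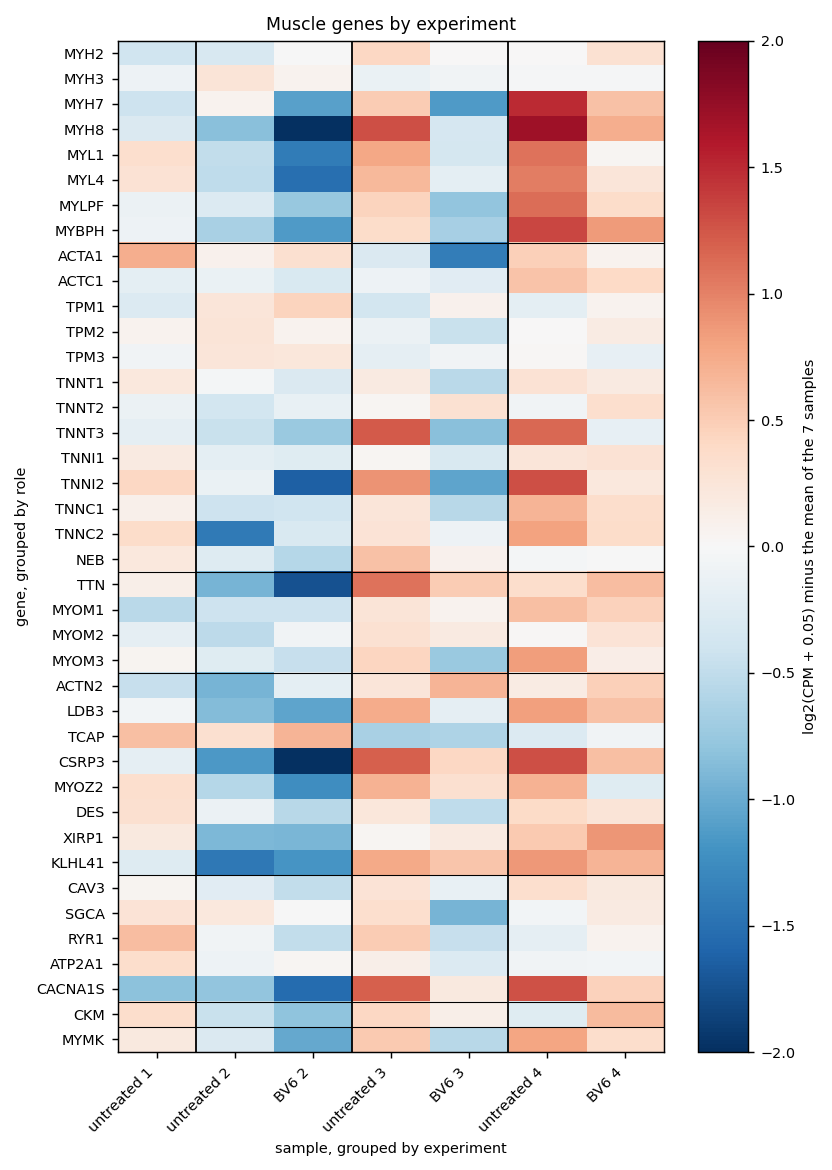
Level of each of the 40 tested genes in the 7 samples as log2(CPM + 0.05) minus its mean over the samples, in columns ordered by experiment, with colors limited to 2 in either direction. Most rows are low in both samples of experiment 2, and untreated replicate 2 was the lowest untreated sample in 27 of the 40 tested genes.

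Other muscle genes, taken from lists of their function, were set beside the 41. Among 42 tested sarcomere genes outside the 41, the median log2 fold change was -0.21 and 0 were called by edgeR in either fit, and 0 by the DESeq2 Wald test. At an unadjusted p below 0.05, 2 were lower and 1 higher on condition alone, and 11 lower and 1 higher with the block. By direction, 31 of the 42 were lower on condition alone and 33 with the block, at a blocked median of -0.25. SYNPO2, a Z-disc adaptor, had 5.3 ± 2.44 CPM (SD, n = 4) without and 2.62 ± 0.817 CPM (SD, n = 3) with BV6, and PDLIM3 had 83.9 ± 17.6 and 57.3 ± 17.4 CPM. Of 19 tested myogenic regulators, 1 was called with the block (median -0.14 on condition alone). MYOCD, the SRF coactivator of heart and smooth muscle, rose from 3.21, 10.1, 2.59 and 6.81 CPM to 22.4, 8.66 and 15.9 CPM, a log2 fold change of 1.36 with the block (edgeR adjusted p = 0.0121). MYOD1 had 344 ± 86.9 CPM without and 251 ± 89.6 CPM with BV6, MYOG 150 ± 53.8 and 154 ± 64.2 CPM and MYF5 6.29 ± 0.832 and 6.05 ± 1.15 CPM (SD, n = 4 and 3), and none of these passed.

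Of 16 tested excitation-coupling genes outside the 41, the calcium channel subunit gene CACNB1 rose with the block, from 26.6 ± 5.07 to 40.2 ± 9.78 CPM (log2 fold change 0.70, edgeR adjusted p = 0.0459). KCNJ11, a potassium channel gene, had 5.16 ± 1.44 and 2.7 ± 0.4 CPM and did not pass in edgeR, and was the 1 gene of 22 in this list that the DESeq2 Wald test called lower, at a log2 fold change of -0.96 and a DESeq2 adjusted p of 0.0217. Among 25 smooth and non-muscle contractile genes, 2 rose with the block. VIM, the vimentin gene, went from 2430 ± 80.5 to 3557 ± 342 CPM (log2 fold change 0.55, edgeR adjusted p = 0.0229) and MYLK, myosin light chain kinase, from 34.7 ± 2 to 52.8 ± 7.49 CPM (0.59, edgeR adjusted p = 0.047), each without overlap between groups. MYOCD, CACNB1, VIM and MYLK did not pass on condition alone, with edgeR adjusted p of 0.369, 0.387, 0.0561 and 0.0938. The 17 dystrophin and costamere genes (median -0.13), 8 muscle energy genes (-0.04) and 9 myoblast fusion genes (-0.13) held none called by edgeR in either fit, with 4 lower and 4 higher together at an unadjusted p below 0.05 on condition alone, and the DESeq2 Wald test called 1 fusion gene higher. In them, DMD had 37.6 ± 2.96 and 51.2 ± 4.31 CPM, DYSF 392 ± 30.2 and 304 ± 47.3 CPM, and JAM2 17.7 ± 2.83 and 27.7 ± 4.36 CPM (SD, n = 4 and 3). Of 14 tested leukocyte markers, ITGAM was the 1 called by edgeR, at 0.372 to 0.713 CPM without and 9.38 to 15.3 CPM with BV6, and 0 of 8 tested fibroblast markers was called by edgeR or DESeq2, with 0 lower and 1 higher at an unadjusted p below 0.05. Of the 21 leukocyte genes, 15 stayed under 1 CPM in every sample, and their summed level was 400 to 527 CPM in untreated and 343 to 461 CPM in BV6-treated cells. NCAM1, which muscle tumor cells also express, held 267 to 484 CPM of it, and without NCAM1 the sum was 43.1 to 61.1 and 45.9 to 75.8 CPM. Of the 10 fibroblast genes, 4 stayed under 1 CPM in every sample, and their sum was 290 to 389 and 245 to 381 CPM. Their part in the results was not tested.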

How the data were processed

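The 7 RH30 samples analysed were grouped by their treatment label into 4 untreated and 3 BV6-treated ones (5 µM, 24 h). The authors prepared stranded poly(A)-selected libraries, mapped paired-end reads to GRCh38 with STAR 2.6.1d and deposited raw counts per gene, with the isoforms of an Ensembl gene joined in a union model. The counting program and its use of strand are not given in the sources used here. Normalization and the Wald test of DESeq2, named in the methods of the study, are not part of the deposited counts.

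From these counts, edgeR 4.0.16 in R 4.3.3 (filterByExpr with a minimum count of 10, TMM, glmQLFit, glmQLFTest) compared BV6-treated with untreated cells on condition alone, with Benjamini-Hochberg adjustment over 23124 genes. A call is an adjusted p below 0.05. The SE of a log2 fold change is its size divided by the square root of its F value. The fit with the experiment as a block is given beside it where it changes a call, and untreated replicate 1 then carries no information on BV6. The pairing comes from the experiment label in the titles, whose meaning the labels do not state. Deviations from the group means correlated at 0.515, 0.322 and 0.197 within experiments (samples of 6, replicates 2 to 4) and at -0.174 on average between them. Each group was centered on the mean of these replicates, so the between value follows largely from the within values. It is no separate evidence of pairing. With untreated replicate 1 in the untreated mean, the within-experiment values were 0.462, 0.438 and 0.0847. The study calls its replicates biological. Where cultures were not separate, p-values measure only the spread between these samples.

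Alternatives were the Wald test of DESeq2 1.42.0, RLE factors, no filter on low counts, at least 10 counts in every sample, limma-voom (limma 3.58.1), the block and leaving out each sample. Leaving out an experiment from the blocked fit and a correction for GC content (loess, span 0.5, on 18101 genes of known GC) were added after seeing the data. The fits were tested on simulated counts.

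Exon lengths, positions, overlaps and GC content are from GENCODE release 44 for GRCh38, matched for 36611 genes by symbol and 864 by a RefSeq synonym, while 19714 of 57189 were not matched. Promoter windows are from RefSeq. The counts fix the precision, with 3 counts equal to 0.039 to 0.0557 CPM. Whether a count equals a read pair is not given, and if it does not, the precision of low genes is less than the counts show.

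The 41 genes and all lists were chosen with earlier results of these data known. Values per sample are given for genes called in either fit, the 12 others with the smallest unadjusted p and the 2 most abundant of each role. The rest are given by range and count. From the other lists, called genes, up to 2 with the smallest p, MYOD1, MYOG and MYF5 are named.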

Additional observations from a re-analysis of the deposited data

Results flagged for a closer look

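ACTC1 in the untreated samples was the 1 of 41 genes with a sample far from the rest of its group. Untreated replicate 4 had 1357 CPM, against 804 to 851 CPM in the other 3 untreated samples, so that its gap filled 0.915 of the whole range, above the 95% critical value of Dixon's test for 4 samples. Chance alone flags about 1 in 20 groups. BV6 replicate 4, of the same experiment, was also the highest BV6 sample, at 1206 CPM.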

How the results depend on the processing

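The fits without a whole experiment and those with a GC correction were added after seeing the data. Among the 41 genes, 0 were called under the Wald test of DESeq2, RLE factors, no filter, at least 10 counts in every sample, limma-voom, the GC correction without the block, or with any 1 sample left out, where the unadjusted count on condition alone was 4. The call of 0 depended on the block, which gave 3 genes, also on genes of known GC content, 3, 4 and 12 without experiment 2, 3 and 4, and 11 with the GC correction. Over all genes, the count of 104 became 408 with DESeq2 and 242 without a filter, which both tested more genes, 218 with the block, 270 with the block on genes of known GC content, 272, 524 and 1530 with the block without experiment 2, 3 and 4, 199 with the GC correction and 1106 with it and the block, and 38 to 89 with a sample left out. The median log2 fold change of the 41 genes that were tested stayed below 0 in every fit run, and moved from -0.32 to between -0.55 (without BV6 replicate 4) and -0.16 (without BV6 replicate 2) with a sample left out. Apart from sign, the block changed the calls of MYL1, MYL4 and TNNI2 and of no other of the 41 genes. The cause of these shifts was not tested. The 5 genes under the filter limit in BV6 samples, and MYBPC1, are limited by depth.

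Some log2 fold changes turned direction, none of them called in the fit where it turned. They did so with the Wald test of DESeq2 for TCAP (-0.010), RLE factors for TCAP (-0.0075), no filter for TCAP (-0.012) and limma-voom for CKM (-0.098), KLHL41 (0.031) and TCAP (-0.027). The same held with the block for MYOM1 (-0.13), the block on genes of known GC content for MYOM1 (-0.13), the block with the GC correction for ATP2A1 (0.031), MYOM1 (-0.14) and TNNC2 (0.073) and the GC correction alone for ATP2A1 (0.014) and MYH3 (0.0018). With the block without experiment 2 for MYH2 (-0.053), MYH3 (0.039) and MYOM1 (-0.17), the block without experiment 3 for ATP2A1 (0.083), KLHL41 (0.021), MYOM1 (-0.092), SGCA (0.0064) and TNNC2 (0.22) and the block without experiment 4 for CKM (-0.43), KLHL41 (0.030), MYH2 (-0.065), MYOM1 (-0.11), TNNC2 (0.32) and TPM3 (0.060), the sign also turned. Over the 7 fits that each lack a sample, values on both sides of 0 were found for ACTC1 (-0.33 to 0.13), CKM (-0.45 to 0.39), KLHL41 (-0.30 to 0.39), MYBPH (-1.33 to 0.015), MYH3 (-0.060 to 0.072), MYOM1 (-0.22 to 0.31), TCAP (-0.41 to 0.28), TNNC2 (-0.56 to 0.059), TPM2 (-0.23 to 0.065), TPM3 (-0.12 to 0.075), TTN (-0.52 to 0.26) and XIRP1 (-0.32 to 0.52). Of the genes named in this paragraph, SGCA and TTN were called lower with the block without experiment 4. Their log2 fold changes there were -0.74 and -0.67 (edgeR adjusted p = 0.0194 and 0.00095).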

Other observations

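TNNI2 and TNNT3 lie 78022 bases apart on chromosome 11, and the genes around them were examined after these values were seen. Within 500000 bases on either side, 20 other genes were tested. Of them, 18 were lower with BV6 (52.3% of all genes), with a median log2 fold change of -0.45 on condition alone. Of the 20, 7 had a log2 fold change of -1 or lower (1.62% of all genes). IGF2, the gene of insulin-like growth factor 2, and the overlapping INS-IGF2 were called lower by edgeR, at -1.63 and -1.66 (0.0562% of all genes were called lower). LSP1, a gene of an actin-binding protein that lies between the troponin genes, had 19.9 ± 4.41 CPM without BV6 (SD, n = 4) and 7.31 ± 3.7 CPM with it (SD, n = 3), without overlap between groups. Its log2 fold change was -1.45 in both fits, with an adjusted p of 0.137 on condition alone and 0.0202 with the block (edgeR with Benjamini-Hochberg adjustment). PRR33 and MIR7847 lie inside LSP1 and may share its reads, and INS-IGF2 and IGF2-AS overlap IGF2 in position. Genes of a neighborhood are not independent, so these counts are a description with no test.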
